A study of Arabidopsis thaliana with 15 samples.

Results

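The FT and TFL1 family of Arabidopsis thaliana comprises 6 genes, FT, TSF, TFL1, BFT, ATC and MFT, out of 27444 protein coding genes of the nuclear chromosomes. The genes were chosen by locus as a named family. No measured value entered that rule, although earlier results of these data were known when it was set. FT is AT1G65480, TSF is AT4G20370, TFL1 is AT5G03840 and BFT is AT5G62040. ATC is AT2G27550 and MFT, listed in RefSeq under the symbol E12A11, is AT1G18100. For each of them the regions called for 2 Polycomb marks were read over the gene body, over the 750 bp upstream of the annotated start and over 8 kb of upstream flank.

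The series mapped H2AK121ub, histone H2A carrying ubiquitin near its C-terminal end, and H3K27me3, histone H3 with 3 methyl groups on lysine 27, by chromatin immunoprecipitation and sequencing (ChIP-seq) of whole seedlings 10 days after germination. It comprised 14 ChIP libraries in 7 groups of 2 replicates and 1 wild-type input, with H2AK121ub in emf1, ring1ab and wild type, and H3K27me3 in emf1, ring1ab, lhp1 and wild type. The results below rest on the wild type (accession Col-0, no mutation or treatment) alone, through the lists of consensus peaks of the 2 marks. Plants were grown in long days, as the study states. The 10 mutant ChIP libraries were not analysed here. By the methods of the study its wild-type peaks combine data from seedlings of 7 and 10 days. Whether these lists include the 7-day data is not settled. The lists held 16310 H2AK121ub peaks, with a median length of 978 bp and quartiles of 489 and 1941 bp, and 4367 H3K27me3 peaks, with a median length of 2925 bp and quartiles of 1415 and 5782 bp. A peak had a position and no height, and replicates were already merged, so that every value below is a description of 1 list per mark, without an error between replicates and without a test. The number of reads behind a list is unknown, and a stretch outside the peaks was not called, which does not show that the mark was missing there. Whole seedlings mix leaf, stem apex and root, so that a mark in part of the cells and a mark in all cells cannot be told apart.

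The family encodes small proteins related to phosphatidylethanolamine-binding proteins. FT, and its close relative TSF, are made in the veins of the leaf, move to the shoot apex and there form a complex with the bZIP protein FD that switches on flowering genes (the florigen signal). TFL1, ATC and BFT compete for the same partner and delay flowering, and MFT acts mainly in seeds, in dormancy and germination. Polycomb repressive complex 1 (PRC1) sets H2AK121ub and PRC2 sets H3K27me3. H3K27me3 is known from genes held silent outside their proper tissue or season, FT among them. The study reported higher expression at genes with H2AK121ub alone than at genes with H3K27me3.

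H3K27me3 met 5 of the 6 genes, all but BFT, and H2AK121ub met 4 of the 6, all but FT and TFL1. A gene counted as marked when a peak shared at least 1 bp with its body or with the 750 bp upstream of its start. TSF, ATC and MFT were H2AK121ub/H3K27me3 genes, FT and TFL1 were only-H3K27me3 genes, and BFT was an only-H2AK121ub gene. None of the 6 was without a mark by this rule, as against 26.9% of all protein coding genes, but BFT lost its mark when the body alone was counted. By the same rule 29.2% of all protein coding genes met H3K27me3 and 68.1% met H2AK121ub, so that the family's H3K27me3 count stood above the genome's share and its H2AK121ub count close to it. The H2AK121ub/H3K27me3 class, with 3 of 6 genes, held 24.2% of all protein coding genes. The only-H3K27me3 class, with 2 of 6, held 4.93% of them, and the only-H2AK121ub class, with 1 of 6, held 43.9%. All 3 H2AK121ub/H3K27me3 genes had bases under both marks at once. This was usual in the class: of all protein coding genes 6655 were in it and 6303 (23.0%) had such bases.

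**Figure D1:**
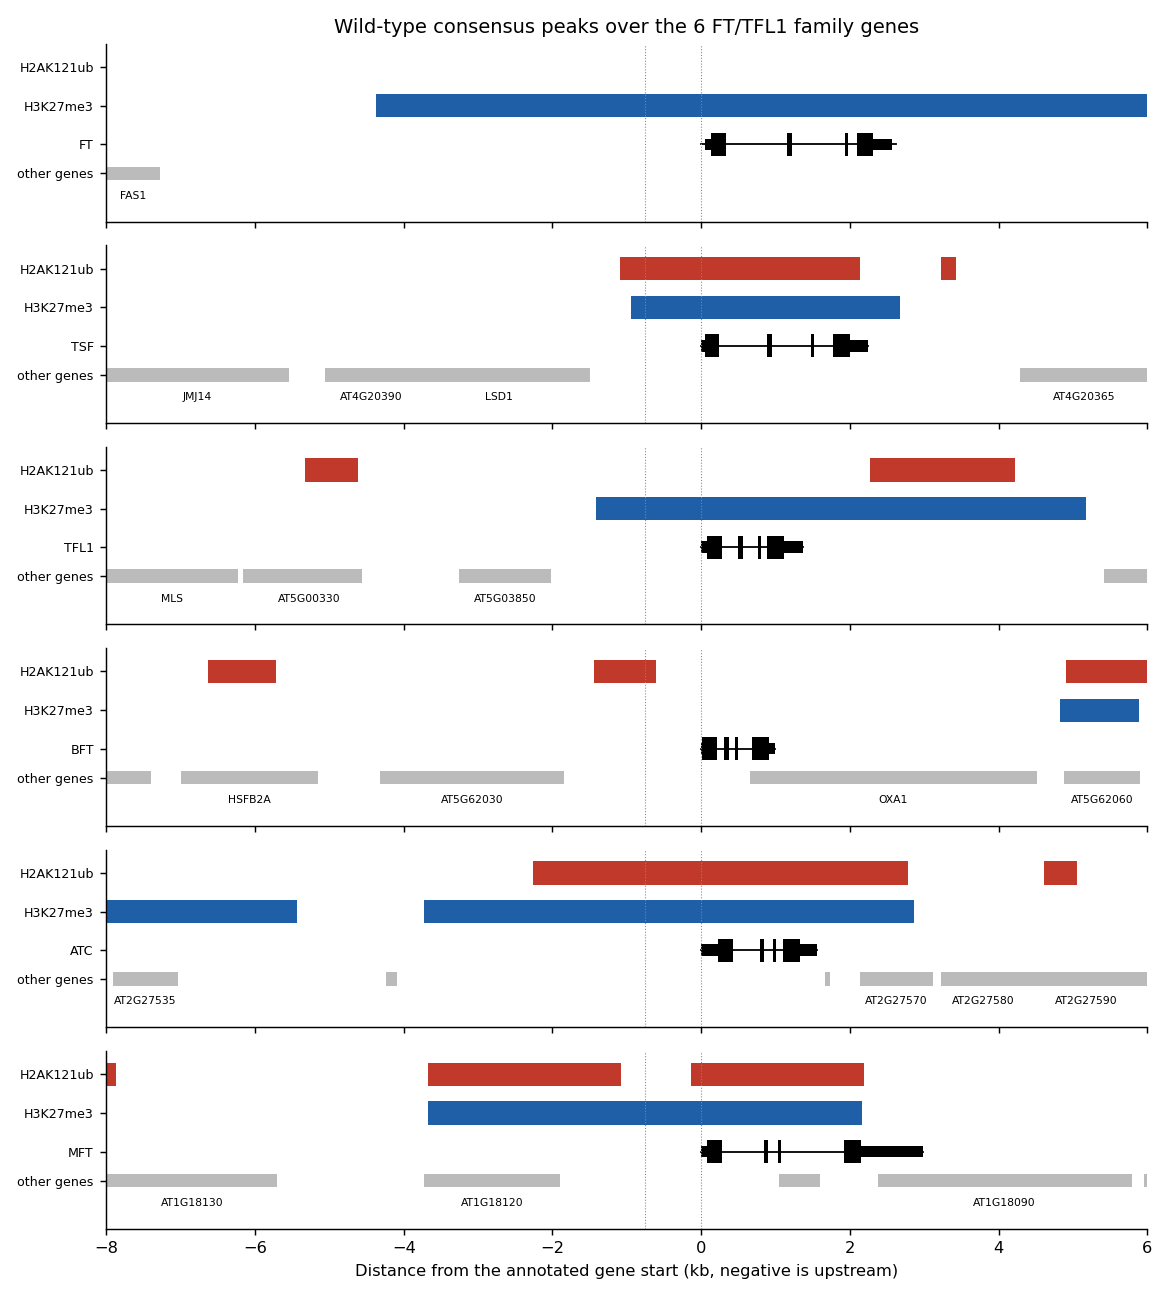
Peaks of H2AK121ub (red) and H3K27me3 (blue) around each gene, from 8 kb upstream to 6 kb downstream of the annotated start, in kb, with the gene in black (tall boxes are coding exons, low boxes untranslated ends) and other annotated genes in grey; the dotted lines mark the start and 750 bp upstream. The bodies of FT, TSF, TFL1 and ATC lay wholly under H3K27me3, BFT had no peak over its body, and the H2AK121ub of MFT was broken just upstream of the gene.

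The opposite roles of FT and TFL1 are known to rest partly on a single amino acid. The exon that encodes it is shown here so that each gene can be seen with its marks. BFT, which delays flowering, has the same amino acid there as FT and TSF, so this position does not separate the roles across the family. The sequences are the second coding exon in the RefSeq copy of TAIR10 (TAIR10.1), read 5′ to 3′ along the gene, with the codon of that amino acid in capitals. The exon lies at chr1:24332526-24332587 on the plus strand (FT), chr4:11002058-11002119 on the minus strand (TSF), chr5:1025315-1025376 on the minus strand (TFL1), chr5:24923114-24923175 on the plus strand (BFT), chr2:11773974-11774035 on the plus strand (ATC) and chr1:6229292-6229353 on the minus strand (MFT).
FT: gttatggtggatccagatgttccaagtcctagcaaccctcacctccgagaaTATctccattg
TSF: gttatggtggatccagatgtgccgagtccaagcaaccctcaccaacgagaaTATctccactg
TFL1: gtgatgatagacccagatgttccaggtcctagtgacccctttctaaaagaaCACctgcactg
BFT: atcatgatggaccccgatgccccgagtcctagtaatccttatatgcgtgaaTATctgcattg
ATC: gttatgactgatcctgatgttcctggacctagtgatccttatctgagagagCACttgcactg
MFT: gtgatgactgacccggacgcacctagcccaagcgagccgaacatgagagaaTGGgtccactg
The codon reads tyrosine (TAT) in FT, TSF and BFT, where it is codon 85, histidine (CAC) in TFL1 at codon 88 and in ATC at codon 86, and tryptophan (TGG) in MFT at codon 83. In each gene the marks over this exon were those of the whole coding region, so they describe the gene and not the codon. Among the tyrosine genes the exon was under H3K27me3 alone in FT, under both marks in TSF and under neither in BFT. Of the histidine genes TFL1 had H3K27me3 alone and ATC had both marks.

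In the transcript read for each gene, the 6 genes shared their exon plan. FT has 2 transcripts, and the one read was that whose first coding exon has the family's usual length. For FT the shared plan thus rests partly on that choice. Each had 4 coding exons, the second of 62 bp and the third of 41 bp in every gene, and between 173 (MFT) and 177 codons (TFL1 and BFT). Over these 103 bp FT and TSF were identical at 88.3% of bases, TFL1 and ATC at 73.8%, TFL1 and BFT at 72.8%, and FT and TFL1 at 67.0%, while the lowest identity was 54.4%, between FT and MFT. FT and TSF, the closest pair over these bases, were in different classes, and so were TFL1 and ATC, the next closest. The remaining pairs were not compared in this way. The introns differed more. Their summed length was 1652 bp in FT, 1427 bp in TSF, 503 bp in TFL1, 366 bp in BFT, 565 bp in ATC and 1540 bp in MFT.

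FT, the florigen gene, lay at chr1:24331373-24333999 on the plus strand (2627 bp). Its body had 0% of bases under H2AK121ub and 100% under H3K27me3. All 4 coding exons, the 3 introns, both untranslated ends and the 750 bp upstream were under H3K27me3, as was 54.7% of the 8 kb flank, and no base of the body or the flank was under H2AK121ub. A flank H3K27me3 cover at least as high was found in 13.2% of all protein coding genes.

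A single H3K27me3 peak made up this cover, at chr1:24326996-24352339. With 25344 bp it was the 24th longest of the 4367 peaks, so that 0.550% of the list was as long. It began 4377 bp before the FT start and ran 18340 bp past the FT end. It stopped 2904 bp short of FAS1, the next gene upstream, which encodes a subunit of chromatin assembly factor 1. FAS1 had 0% of its body under H3K27me3 and 2.81% under H2AK121ub. On the downstream side a gap of 656 bp separated the peak from the next H3K27me3 peak, of 7875 bp.

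The peak over FT met 7 further annotated genes downstream, 4 of them protein coding (AT1G65481, AT1G65483, AT1G65484 and AT1G65486), along with the long non-coding RNA genes AT1G08757 and AT1G08763 and the pseudogene AT1G65485. All 7 had their whole bodies under H3K27me3. H2AK121ub covered 26.5% of the peak, in 2 stretches on its far side: a peak of 6006 bp from 10958 to 16963 bp after the FT start, and one of 703 bp from 18258 to 18960 bp after it. AT1G65483, AT1G08763 and AT1G65485 were wholly under H2AK121ub too, AT1G65484 had 67.5% and AT1G65486 62.4% of the body under it, and AT1G08757 and AT1G65481, the genes nearest to FT, had 0%.

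**Figure D2:**
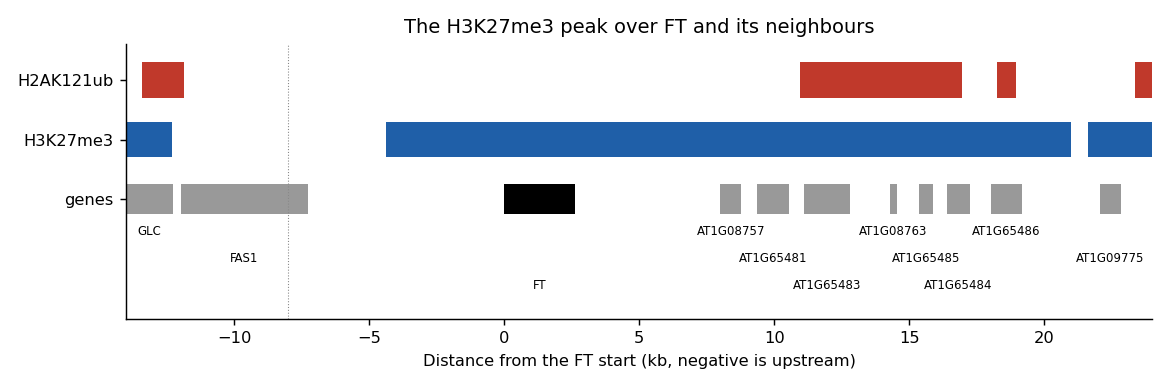
H2AK121ub (red) and H3K27me3 (blue) peaks from 14 kb upstream to 24 kb downstream of the FT start, in kb, with FT in black, other annotated genes in grey and a dotted line at 8 kb upstream. The H3K27me3 peak of 25344 bp held FT near its upstream end, and the 2 H2AK121ub peaks inside it lay over the downstream genes.

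FT was far from H2AK121ub even among genes of its class. The nearest H2AK121ub peak was 8332 bp downstream of the body, and on the upstream side the nearest was 11846 bp before the start. Of the 1354 only-H3K27me3 genes 89 (6.57%) were as far from H2AK121ub, and the median distance in that class was 1838.5 bp. The presence of H2AK121ub elsewhere in the same H3K27me3 peak was common in the class, at 1025 of the 1354 genes (75.7%), and held for FT and for TFL1.

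The proximal promoter and the upstream border of the FT peak are shown because FT, unlike TSF, had H3K27me3 alone at its proximal promoter, and because its peak began farther upstream than those over the other genes. CONSTANS (CO), the photoperiod activator of FT, is known to bind sites with the core CCACA, which reads TGTGG on the other strand. Its partners, the NF-Y proteins, bind CCAAT. The first sequence is the 250 bp before the annotated start, chr1:24331123-24331372 on the plus strand, with matches to CCACA and to GAGAGA on either strand in capitals. The second spans the border, chr1:24326936-24327055 on the plus strand, with the bases inside the peak in capitals. Motifs are not marked in this second sequence, although its capitals also contain TGTGG.
FT proximal: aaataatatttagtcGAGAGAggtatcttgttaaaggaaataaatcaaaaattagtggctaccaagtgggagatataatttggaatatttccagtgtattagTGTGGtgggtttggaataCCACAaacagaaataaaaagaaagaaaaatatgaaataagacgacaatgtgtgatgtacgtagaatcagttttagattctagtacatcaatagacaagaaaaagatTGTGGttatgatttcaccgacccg
FT border: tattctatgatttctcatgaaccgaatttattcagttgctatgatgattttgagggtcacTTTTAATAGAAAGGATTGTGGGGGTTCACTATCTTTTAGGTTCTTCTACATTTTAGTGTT
The 750 bp upstream of FT held CCACA 3 times, all within these 250 bp, with first bases 148, 130 and 24 bp before the start. No other gene of the family had a match in its 750 bp, although 64.4% of all 27443 upstream windows of this length held at least 1. All 3 matches lay under H3K27me3 and outside H2AK121ub.

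CCAAT is also known from a distal enhancer of FT, and the FT flank was searched for it on both sides of the border. The 3623 bp of the flank outside the H3K27me3 peak held 7 matches (1.93 per kb) and the 4377 bp inside it held 7 (1.60 per kb), against a mean of 2.31 per kb over the 8 kb flanks of all protein coding genes. The density on either side of the border was thus below that mean. It rests on 7 matches per side, and without the spread among other flanks a depletion was not tested.

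TSF, the second florigen gene, lay at chr4:11000771-11003010 on the minus strand (2240 bp). Unlike FT it carried both marks, with 95.4% of its body under H2AK121ub and 100% under H3K27me3. The bases of the body outside H2AK121ub were at the end of the gene, where 57.1% of the 3′ untranslated region (137 of 240 bp) was covered. The 750 bp upstream was wholly under both marks.

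The peaks over TSF largely coincided. The H2AK121ub peak, chr4:11000874-11004103, was 3230 bp long (10.4% of the list was as long), and the H3K27me3 peak, chr4:11000337-11003951, was 3615 bp long (42.5%). They shared 3078 bp, so that 85.1% of the H3K27me3 peak was under H2AK121ub, against a median of 66.2% (quartiles 34.5% and 95.7%) over all H3K27me3 peaks. H2AK121ub reached 1093 bp and H3K27me3 941 bp upstream, and neither peak met another gene. Farther upstream the flank was free of peaks, and 13.7% of the 8 kb was under H2AK121ub and 11.8% under H3K27me3. Counted only up to the nearest upstream gene, the cover was 73.3% and 63.1%. The nearest gene there is LSD1, a regulator of cell death read in the other direction. LSD1 was placed in the H2AK121ub/H3K27me3 class by the upstream rule, with 0% of its body under either mark. JMJ14, a histone demethylase gene at the far end of the flank, carried neither mark.

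At the upstream side of TSF the H2AK121ub peak extended 152 bp beyond the H3K27me3 peak. This piece (chr4:11003952-11004103, minus strand) is the part of that peak with H2AK121ub alone. A separate H2AK121ub peak of 197 bp lay 992 bp past the gene end, also outside H3K27me3. The upstream piece is printed with its match to CCACA in capitals.
TSF H2AK121ub alone: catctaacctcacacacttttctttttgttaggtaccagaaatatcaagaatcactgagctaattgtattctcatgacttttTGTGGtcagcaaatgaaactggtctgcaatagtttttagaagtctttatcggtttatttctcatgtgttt
The 750 bp upstream of TSF itself held CCAAT 2 times and GAGAGA 1 time. CCAAT was present in 82.4% and GAGAGA in 47.0% of all windows.

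TFL1, which keeps the shoot apex from turning into a flower, lay at chr5:1024500-1025872 on the minus strand (1373 bp). Its body and the 750 bp upstream had 0% under H2AK121ub and 100% under H3K27me3, as in FT. The H3K27me3 peak, chr5:1020699-1027285, was 6587 bp long, and 20.4% of the list was as long. It reached 1413 bp upstream, to 601 bp from the gene AT5G03850, and 3801 bp past the end of TFL1, into sequence with no annotated gene. The downstream part was thus longer than the upstream part, as it was in FT.

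H2AK121ub was close to TFL1 but outside the gene. A peak of 1950 bp, chr5:1021649-1023598, began 902 bp past the gene end and lay wholly inside the H3K27me3 peak, of which it covered 29.6%. The intergenic region downstream of TFL1 is known to contain elements that control its expression in the apex. In the 8 kb flank a further H2AK121ub peak of 714 bp lay 4619 to 5332 bp before the start, over the non-coding genes AT5G00940 and AT5G00330 and outside H3K27me3. The flank was covered to 8.93% by H2AK121ub and to 17.7% by H3K27me3, and up to the nearest upstream gene to 0% and 70.2%. Of the 1354 only-H3K27me3 genes 77.4% were at least as far from H2AK121ub as TFL1, whereas FT was among the 6.57% farthest.

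BFT, a relative of TFL1 that delays flowering, was the shortest gene, at chr5:24922802-24923797 on the plus strand (996 bp). It had 0% of its body under H2AK121ub and 0% under H3K27me3. Its class rested on 139 bp at the far end of the 750 bp window (18.5% of it), where an H2AK121ub peak of 829 bp, chr5:24921362-24922190, lay 612 to 1440 bp before the start. Without the upstream window, or with a minimum overlap of 200 bp, BFT carried neither mark. That peak met no annotated gene. The 139 bp, chr5:24922052-24922190 on the plus strand, are the only marked bases in the BFT gene region and held none of the 6 motifs searched.
BFT H2AK121ub: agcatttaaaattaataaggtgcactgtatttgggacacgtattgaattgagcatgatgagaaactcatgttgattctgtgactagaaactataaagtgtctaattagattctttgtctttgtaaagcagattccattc
The BFT flank had 21.8% of its bases under H2AK121ub, through this peak and one of 917 bp over HSFB2A, a heat shock factor gene. It had no H3K27me3. The nearest H3K27me3 peak, of 1074 bp, was 3826 bp downstream, and on the upstream side none came within 67560 bp of the start. The 3′ end of BFT overlaps OXA1 on the other strand, a gene for a mitochondrial membrane insertase, which had 0% of its body under either mark.

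ATC, a systemic inhibitor of flowering in short days, lay at chr2:11773187-11774746 on the plus strand (1560 bp) and was covered most fully. Its whole body and its 750 bp upstream were under both marks, and it was the only gene of the family with the whole body under H2AK121ub. Among all protein coding genes 8.33% had the whole body under H2AK121ub. The whole body was under H3K27me3 in 4 of the 6 family genes (FT, TSF, TFL1 and ATC) and in 12.2% of all protein coding genes.

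The H2AK121ub peak over ATC, chr2:11770925-11775967, was 5043 bp long (3.54% of the list was as long) and lay wholly inside the H3K27me3 peak, chr2:11769462-11776053, of 6592 bp (20.3%). H3K27me3 thus continued upstream where H2AK121ub ended: the borders were 3725 bp and 2262 bp before the start. The H3K27me3 peak stopped 361 bp from the small gene AT2G27540. Downstream both peaks ended close to each other, 1221 bp (H2AK121ub) and 1307 bp (H3K27me3) past the gene end, over the tRNA gene AT2G27560 and part of AT2G27570. A second H3K27me3 peak of 2568 bp, over AT2G27535, lay 5440 to 8007 bp before the start with no H2AK121ub. With it 78.6% of the ATC flank was under H3K27me3, the highest cover in the family, and 6.43% of all protein coding genes had as much. H2AK121ub covered 28.3% of that flank.

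MFT, the seed gene, lay at chr1:6227217-6230194 on the minus strand (2978 bp), with 73.5% of its body under H2AK121ub and 72.5% under H3K27me3. The uncovered bases were those of the last exon past the stop codon. All coding bases and introns were under both marks, H2AK121ub ended 42 bp and H3K27me3 12 bp past the stop codon, and the 832 bp of the 3′ untranslated region were covered to 5.05% by H2AK121ub and to 1.44% by H3K27me3. In FT, TSF, TFL1 and ATC H3K27me3 ran on past the stop codon by 18650, 674, 4061 and 1544 bp. The antisense non-coding gene AT1G05383, which overlaps the third coding exon and the third intron of MFT, was wholly under both marks.

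Upstream of MFT the marks parted. The H3K27me3 peak, chr1:6228037-6233874, was a single stretch of 5838 bp that reached 3680 bp before the start, over the pseudogene AT1G18120. Over the gene and the same upstream stretch H2AK121ub was in 2 peaks, one of 2329 bp over the gene, ending 141 bp before the start, and one of 2598 bp from 1078 to 3675 bp before it. The upstream borders of the marks were 5 bp apart. A further H2AK121ub peak of 3225 bp, which met AT1G18130 and the laccase gene LAC1, reached into the far edge of the flank. Between the H2AK121ub peaks was a stretch of 936 bp, chr1:6230336-6231271, with H3K27me3 alone, and it took up most of the 750 bp window, of which 18.8% was under H2AK121ub and 100% under H3K27me3.

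The stretch between the H2AK121ub peaks is printed in part because it contained the only match to CACGTG in the upstream windows of the family. CACGTG, the G-box, is bound by bZIP and bHLH factors, and CATGCA, the RY element, by B3 factors of the seed such as ABI3. The piece is chr1:6230765-6230884 on the minus strand, with the matches in capitals.
MFT between H2AK121ub peaks: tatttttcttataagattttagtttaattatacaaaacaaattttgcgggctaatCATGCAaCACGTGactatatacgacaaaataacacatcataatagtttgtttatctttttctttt
The RY and G-box matches were 1 base apart, at 635 to 630 bp and 628 to 623 bp before the start. CACGTG was found in 12.3% and CATGCA in 25.0% of all 750 bp windows. The MFT window was also the poorest in G and C, at 20.9%, and 99.1% of all windows had at least as much. Other windows had 28.5% (FT), 29.3% (TSF), 28.7% (BFT) and 29.1% (ATC), and the median of all windows was 32%. AAACCCTA, the telobox motif, was in none of the 6 windows and in 10.2% of all windows.

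**Figure D3:**
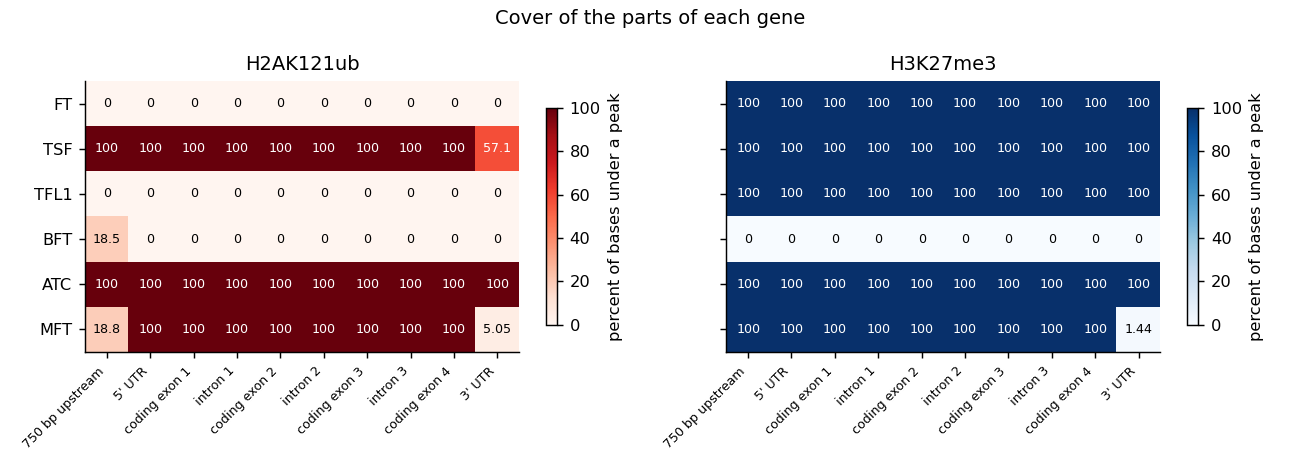
Percent of bases under H2AK121ub (left, red) and H3K27me3 (right, blue) in the 750 bp upstream, the untranslated regions (UTR), each coding exon and each intron of the 6 genes, with the value printed in each cell. Within a gene the coding exons and introns had 0% or 100%, and values between these were confined to the upstream windows of BFT and MFT and the 3′ untranslated regions of TSF and MFT.

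Across the family, cover changed from gene to gene more than within a gene. The median cover of the body by H2AK121ub was 36.7% in the 6 genes and 15.8% in all protein coding genes (mean 31.8%), with a range of 0% to 100% in the family. No family gene was near that median: FT, TFL1 and BFT had 0%, MFT 73.5%, TSF 95.4% and ATC 100%. The median cover of the body by H3K27me3 was 100% in the 6 genes and 0% in all (mean 18.7%). Gene length was similar, with a median of 1900 bp in the family and 2078 bp in all protein coding genes.

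In the 8 kb flank an H2AK121ub peak was present for 5 of the 6 genes, all but FT, and for 85.8% of all protein coding genes. An H3K27me3 peak was present for 5 of the 6, all but BFT, and for 46.5% of all. Median flank cover by H2AK121ub was 17.7% in the family and 19.9% in all genes (mean 24.2%), and by H3K27me3 it was 31.8% and 0% (mean 18.3%). The MFT flank had 35.8% under H2AK121ub and 46% under H3K27me3.

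**Figure D4:**
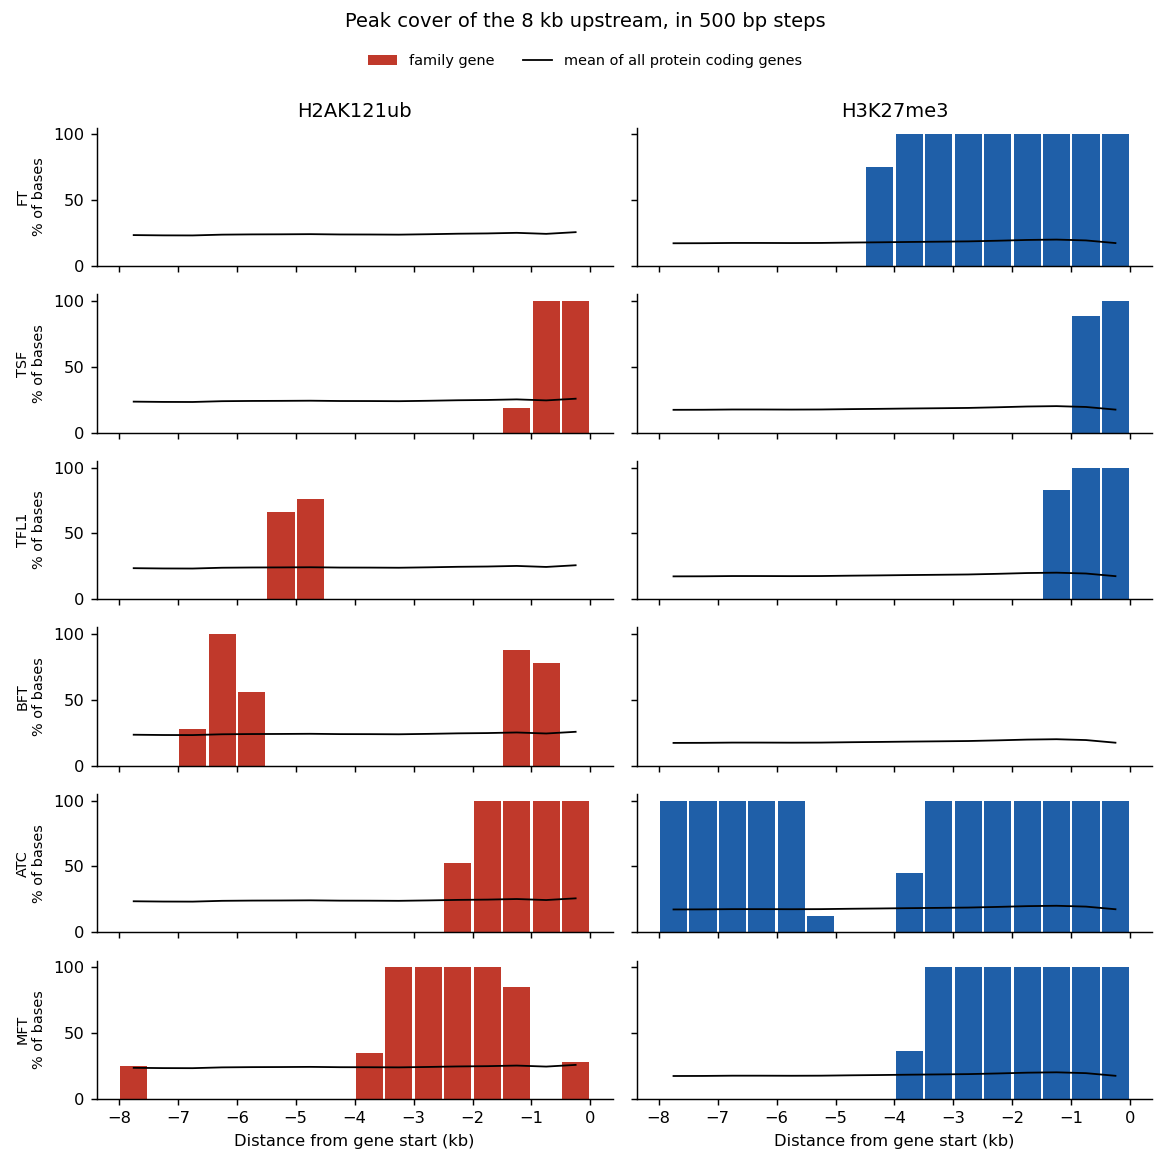
Percent of bases under H2AK121ub (left column, red bars) and H3K27me3 (right column, blue bars) in each 500 bp step of the 8 kb upstream of each gene, with the mean of all protein coding genes as a black line; the horizontal axis is distance from the start in kb. Over all genes the mean was between 23.3% and 25.8% for H2AK121ub and between 17.3% and 20.1% for H3K27me3 at every step, whereas the bars of each gene were mostly at 0% or 100%.

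In steps of 500 bp, H3K27me3 was complete next to the start in the 5 genes that carried it. That stretch then ended in a different step in each gene, except that ATC and MFT shared a step. In TSF cover was 88.2% at 501 to 1000 bp and 0% beyond, and in TFL1 it was 82.6% at 1001 to 1500 bp and 0% beyond. ATC and MFT had 100% up to 3500 bp and 45% and 36% at 3501 to 4000 bp. In ATC cover returned farther out with its second peak, at 100% in each step from 5501 to 8000 bp. FT had 100% up to 4000 bp and 75.4% at 4001 to 4500 bp. H2AK121ub next to the start was 100% in TSF and ATC, 28.2% in MFT, and 0% in FT, TFL1 and BFT.

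The reach of the peak over the start was set beside that of all 4844 protein coding genes with an H3K27me3 peak over the start, whose upstream border had a median of 2243 bp and quartiles of 714 and 5091 bp. The 5 family genes lay between 941 and 4377 bp, inside those quartiles. Past the gene end the median of these genes was 852 bp (quartiles −137 and 3578.5 bp). FT, with 18340 bp, was exceeded or matched by 1.36% of them, TFL1, with 3801 bp, by 23.5%, ATC, with 1307 bp, by 44.5%, and TSF, with 434 bp, by 57.0%. The peak over MFT ended 820 bp before the gene end, and 89.2% of the genes had a peak that ran farther. FT therefore stood at the edge of the distribution on the downstream side and not on the upstream side.

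**Figure D5:**
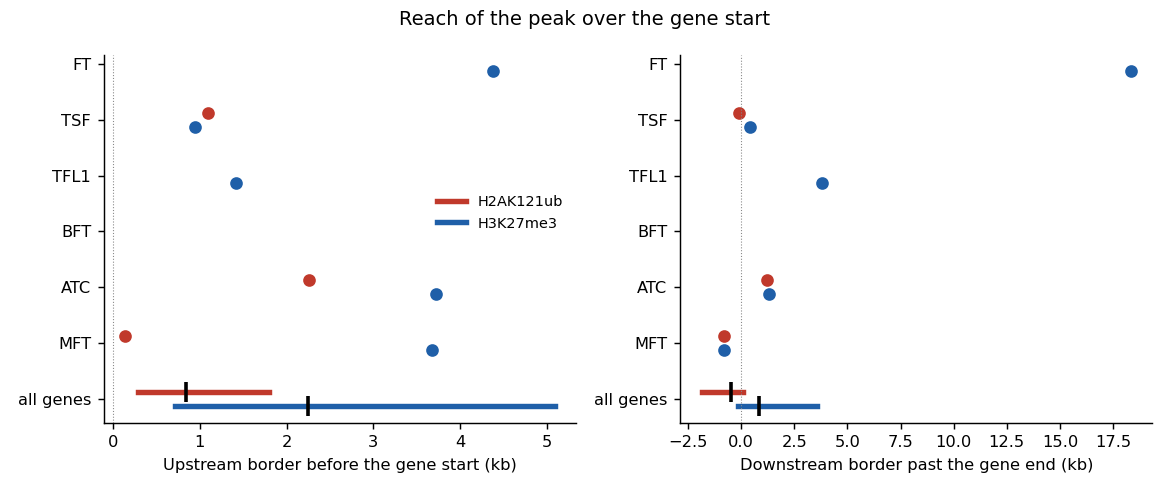
Distance in kb by which the peak over the start extended upstream of the start (left) and past the gene end (right, negative where it stopped inside the gene) for the family genes, as dots, with the median (black tick) and quartiles (bar) of all protein coding genes that have such a peak; H2AK121ub is red and H3K27me3 blue. BFT had no peak over its start, and FT and TFL1 had none of H2AK121ub.

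For H2AK121ub the 8300 protein coding genes with a peak over the start had a median upstream reach of 840 bp (quartiles 284 and 1796 bp). ATC, at 2262 bp, was matched by 18.3% of them, TSF, at 1093 bp, by 41.3%, and MFT, at 141 bp, by 80.8%. The H3K27me3 peaks over TSF, TFL1 and MFT met no other protein coding gene, which was so for 3 of the 5 marked family genes and for 1542 of the 4844 genes (31.8%).

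The genes that control FT, carry its protein or answer to it were read in the same way, as a list of 20 genes. The list was written down with earlier results of these data known. Its counts beside the genome's shares are therefore description and not independent support. Of the 12 regulators of FT 8 were only-H2AK121ub genes, a class that held 43.9% of all protein coding genes: CO and the light sensor FKF1, the CO repressor CDF1, and the FT repressors SVP, TEM1, TEM2, SMZ and TOE2. FLC, the vernalisation-controlled repressor, and SNZ and TOE1, relatives of APETALA2, were H2AK121ub/H3K27me3 genes, and GI, the clock-linked activator, carried neither mark. FLC had 23.2% of its body under H2AK121ub and 100% under H3K27me3, SNZ had 100% and 88.0%, and TOE1 had 73.0% and 0%, with its H3K27me3 only in the upstream window. The partners FD and FTIP1, which helps FT leave the phloem companion cells, were only-H2AK121ub genes, and FDP carried neither mark.

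All 5 targets at the shoot apex met H3K27me3. SOC1 (78.0% of its body under H2AK121ub), LFY (100%) and FUL (68.8%) were H2AK121ub/H3K27me3 genes, and AP1 and CAL, the floral identity genes, were only-H3K27me3 genes with 0% of the body under H2AK121ub. All 5 had 100% of the body under H3K27me3, as did 12.2% of all protein coding genes. FT and TFL1 thus shared their class, which held 4.93% of all protein coding genes, with AP1 and CAL. Over the 20 genes H3K27me3 met 8 and H2AK121ub met 16, against 29.2% and 68.1% of all protein coding genes.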

How the data were processed

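Bowtie was used by the authors to align the read pairs (genome TAIR10). They ran MACS2 with its defaults on each wild-type replicate, intersected the replicates and combined them with wild-type data of an earlier age. Versions are not stated, and whether the deposited lists hold the later age alone is not settled by the files. The deposited values are start and end positions in bp, with no score, signal or depth.

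Positions, given from 1, were compared with the RefSeq genome TAIR10.1, and all peaks lay within its 5 nuclear chromosomes. Overlaps, cover and motif matches on both strands were computed in Python 3.11.15 with NumPy 2.4.6, and sequences were read from the genome with Biopython 1.88. Gene starts were the outer ends of the annotated genes. Parts were taken from the RefSeq transcript with the shortest coding sequence of each gene. FT has 2 transcripts, and the one used has a first coding exon of the family's usual length. It starts 55 bp after the gene start. Functions were tested on simulated intervals.

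All 6 family genes and all genes of the pathway list were named, and other genes where a peak or flank of the family reached them. The members and lists were chosen with earlier results of these data known. A planned comparison of protein sequences was replaced by coding exons. Alternatives were other gene regions, overlaps, flanks, merged or longer peaks and other gene sets. Mutant libraries and the input were not analysed here. The sequence upstream of TFL1 is not reported here.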

Additional observations from a re-analysis of the deposited data

How the results depend on the processing

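H3K27me3 met 5 family genes and both marks met 3 under each of the 6 alternatives of gene region, overlap and peaks, and 3 also when both marks had to share bases. H2AK121ub met 4, but 3 with the gene body only or at least 200 bp of overlap, where BFT lost its mark. From start to stop codon the cover of the body was 100% by H2AK121ub in TSF and MFT and 100% by H3K27me3 in MFT. With a flank of 4 kb the H3K27me3 cover was 100% in FT, 93.1% in ATC and 92% in MFT, and the H2AK121ub cover of TFL1 was 0%. A flank ended at the nearest upstream gene moved 10 of the 12 flank values: by H2AK121ub to 73.3% in TSF, 0% in TFL1, 44.9% in BFT, 55.4% in ATC and 50.7% in MFT, and by H3K27me3 to 60.1% in FT, 63.1% in TSF, 70.2% in TFL1, 91.2% in ATC and 100% in MFT. Over all annotated nuclear genes the shares were 58.0% for H2AK121ub and 26.1% for H3K27me3. Merging peaks across gaps of at most 500 bp moved no value of the family.

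No paired analysis was possible because replicates were merged by the authors before deposit, and for the same reason none was left out. Depth and peak height are unknown, so that weak and strong peaks had equal weight, and peak length depends on how the caller joined neighbouring stretches.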
